A study of Mus musculus with 2 samples.

Results

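Integrins are adhesion receptors built from 1 alpha and 1 beta chain that together bind matrix proteins or counter-receptors on other cells. The 10 integrin subunit genes described here were chosen by name, and comprise 4 beta-2 leukocyte subunits (Itgam, Itgax, Itgal and Itgb2) and 6 subunits grouped as matrix-binding (Itga4, Itga5, Itga6, Itgav, Itgb1 and Itgb5), out of 18194 genes with a probe set of a single gene name. They are represented by 31 probe sets annotated to exactly 1 of them. In macrophages the beta-2 integrins mediate firm adhesion to endothelium and the uptake of complement-coated particles, while integrins with the beta-1 and beta-5 chains attach the cell to fibronectin, laminin and vitronectin. The alpha chain largely sets the ligand, and the short tail of the beta chain binds talin and kindlin, which switch the receptor to its active state.

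The cells were peritoneal macrophages of 8-week-old male wild type C57BL6 mice. An injection of thioglycolate medium, an irritant that recruits inflammatory macrophages to the peritoneal cavity, was given 1 week before lavage, and the recovered cells were cultured. Both groups share these steps. The control group received no CSF1, and the CSF1 group received 100 ng/ml CSF1, the growth factor that signals through the receptor tyrosine kinase Csf1r, for 12 h. Each group is 1 Affymetrix Mouse Genome 430 2.0 array, and the labels give neither the number of mice behind an array nor whether both arrays share them. With 1 array per group no test was possible, so no difference below has a replicate check, and this number of arrays is what limits precision.

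Signals are the deposited intensity units. A probe set was taken as above background when it exceeded 135.2 units. Of the values of probe sets for genes of unrelated tissues, both arrays pooled, 90% do not pass this level. The measure is the log2 ratio, CSF1 over control, after values under background were raised to that level. The brightest probe set, by mean log2 level, represents each gene, and 11144 genes were above background on at least 1 array and are called measured. The SD printed after a gene's mean is the scatter of those of its probe sets that exceeded background on both arrays. Pooled over 3859 genes that SD was 0.29 on the log2 scale, and it covers neither cultures nor animals. The median log2 ratio of all measured genes was 0.00, with 25% of genes below -0.21 and 25% above 0.22. Because probe sets differ in how well they hybridise, signals are compared between the arrays for the same probe set. Signal levels do not rank genes by their amount of RNA, and sums over lists of genes are given as description only.

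Of the 12 general macrophage markers, 11 were above background on both arrays, among them Adgre1, the F4/80 antigen, and Cd68, a glycoprotein of macrophage endosomes. Transcripts of fibroblasts were present as well, with 4859 units without CSF1 and 5297 units with it for the collagen gene Col1a1 on its brightest probe set.

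All 10 integrin subunits were above background on both arrays, and their ratios were small. On the deposited scale 9 of the 10 genes had a lower signal with CSF1, against 49.9% of all measured genes, and 8 of the 10 had a higher one when the arrays were centred on the hybridisation spikes, which put the median of all measured genes at 0.28. Relative to that median 8 of the 10 were again lower under the spike centring. When the arrays were centred on their measured probe sets 8 were lower, with Itga4 just above 0. None of the 10 was past 2-fold, a size that 0.996% of all measured genes reached upwards and 0.772% downwards. None was past 1.5-fold either, against 5.95% and 5.49%. RNA of the whole culture was measured, so fewer cells bearing an integrin and less integrin RNA per cell cannot be told apart.

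**Figure D1:**
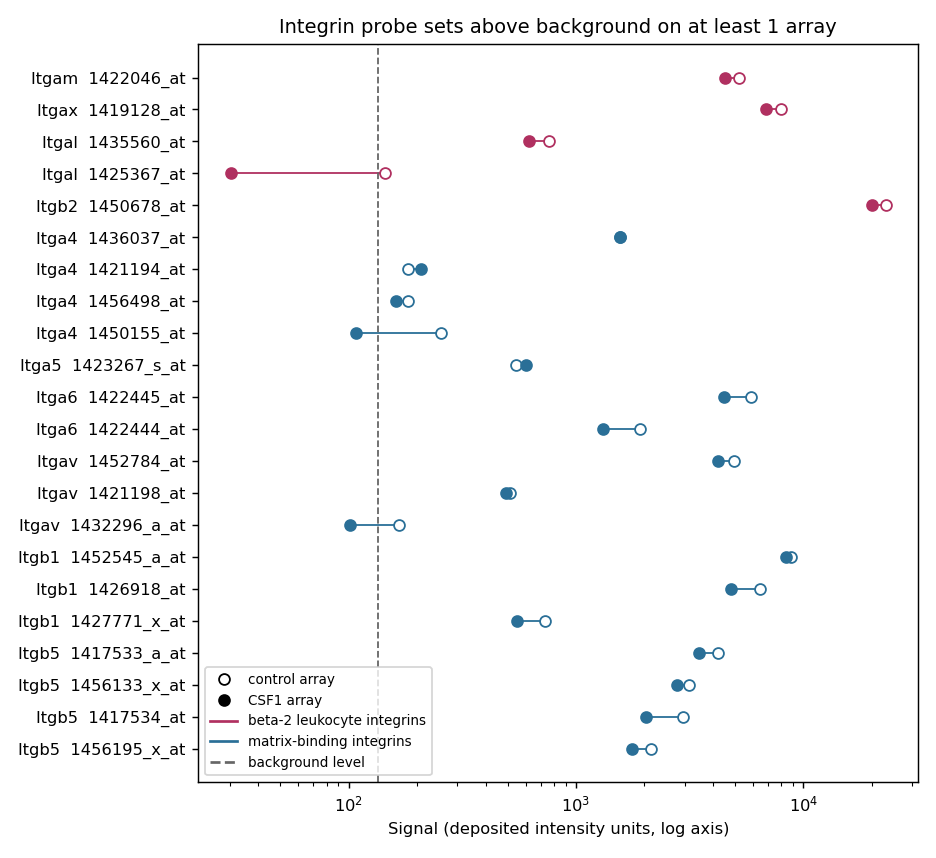
Signal of the 22 integrin probe sets above background on at least 1 array, in deposited intensity units on a log axis, with open circles for the control array and filled circles for the CSF1 array. Filled circles lie to the left of open ones for most probe sets on the deposited scale, and the 3 probe sets that cross the dashed background level do so between 145 and 255 units on the control array.

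Of the 31 probe sets, 19 were above background on both arrays, 3 on the control array alone and 9 on neither. None of the 19 was past 2-fold, against 0.812% of such probe sets upwards and 0.799% downwards over all genes. Among the 19, 17 had a log2 ratio below 0 on the deposited scale, against 50.6% of all probe sets of this kind. The exceptions were a dim probe set of Itga4 and the probe set that represents Itga5. The 19 read the same genes as the gene count above and are not independent of it. When the arrays were centred on the hybridisation spikes, most of the 19 had a log2 ratio above 0. The 19 ratios ranged from -0.53 to 0.19 with a median of -0.22.

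The beta-2 leukocyte integrins share the chain encoded by Itgb2 (CD18). Itgb2 had 23008 units without CSF1 and 20058 units with it, a 1.15-fold lower signal. Its log2 ratio of -0.20 came to -0.07 after quantile normalization and -0.06 after a loess correction for signal level. Itgb2 is among the 517 brightest genes, those with a mean log2 level above 13, whose median ratio was -0.09.

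Itgam encodes CD11b, which with CD18 forms Mac-1 (complement receptor 3), a receptor for the complement fragment iC3b, fibrinogen and ICAM-1. Its single probe set had 5226 units without CSF1 and 4504 units with it, a log2 ratio of -0.21. Itgax encodes CD11c, the alpha chain of complement receptor 4, which is expressed by macrophages and dendritic cells. It had 8004 units without CSF1 and 6854 units with it, a log2 ratio of -0.22. The signal of both alpha chains was thus lower with CSF1 by a similar amount, 1.16-fold for Itgam and 1.17-fold for Itgax.

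Itgal encodes CD11a, the alpha chain of LFA-1, which binds ICAMs and is shared with lymphocytes. Its brightest probe set had 762 units without CSF1 and 619.5 units with it, a 1.23-fold lower signal and a log2 ratio of -0.30. The other probe set had 144.7 units on the control array, just above background, and 30.4 units with CSF1, which gives only a bound of at least 1.07-fold lower. Averaging both probe sets without regard to background put Itgal at -1.28, and that value rests on the dim probe set.

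Itgam and Itgax are adjacent protein-coding genes on mouse chromosome 7 in the RefSeq gene table. Their ratios differed by less than 0.01 on the deposited scale, and were -0.22 and -0.20 after the loess correction. Such closeness is not particular to neighbours, since Itgb2 on chromosome 10, at -0.20, and Itgav on chromosome 2, at -0.24, lay near them too. Shared control of Itgam and Itgax was not tested. The promoters of these 2 neighbours, picked after their ratios were seen, are shown next to that of Itgb1, a beta chain expressed in most tissues. Each sequence runs from 250 bases before to 50 bases after the RefSeq start (GRCm38.p6) in the direction of the gene, on the plus strand in all 3 cases. Capitals mark GAGGAA or its reverse complement TTCCTC, the core of the sites bound by PU.1, the ETS transcription factor that drives myeloid genes.
Itgam, chr7:128062390-128062689: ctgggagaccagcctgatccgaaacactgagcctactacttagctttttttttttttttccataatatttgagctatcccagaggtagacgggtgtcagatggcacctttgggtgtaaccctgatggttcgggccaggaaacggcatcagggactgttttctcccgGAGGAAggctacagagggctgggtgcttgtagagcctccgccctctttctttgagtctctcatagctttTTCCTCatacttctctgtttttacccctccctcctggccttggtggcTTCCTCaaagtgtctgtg
Itgax, chr7:128129300-128129599: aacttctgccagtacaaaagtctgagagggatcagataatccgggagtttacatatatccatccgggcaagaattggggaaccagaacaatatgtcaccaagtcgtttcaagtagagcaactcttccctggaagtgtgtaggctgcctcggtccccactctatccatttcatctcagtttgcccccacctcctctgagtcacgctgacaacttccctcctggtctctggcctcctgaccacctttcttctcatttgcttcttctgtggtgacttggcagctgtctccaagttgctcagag
Itgb1, chr8:128685404-128685703: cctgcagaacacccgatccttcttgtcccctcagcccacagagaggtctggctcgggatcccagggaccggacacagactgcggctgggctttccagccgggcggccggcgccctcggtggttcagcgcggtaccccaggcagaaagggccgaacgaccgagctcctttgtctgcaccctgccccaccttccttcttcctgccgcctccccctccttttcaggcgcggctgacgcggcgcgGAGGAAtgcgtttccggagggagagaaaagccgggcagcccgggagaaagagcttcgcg

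The Itgam window holds 3 matches to this core, which begin 84 and 15 bases before the start and at base 33 after it, and no other of the 7 members with a promoter in the table holds as many. The Itgax window holds none, and the Itgb1 window holds 1, which begins 9 bases before the start. The core, read on both strands, is found in 28.3% of the 32851 promoters in the table and in 4 of the 7 member promoters. The AP-1 motif TGANTCA occurs in 7.81% of promoters and, among the 7, only in Itgax, where it begins 56 bases before the start. The Sp1 motif GGGCGG, found in 35.7% of promoters, is in all of the 7 but Itgax. The matches to different motifs did not overlap in these 7 windows. They are letters in a window and no evidence of binding. Promoters of Itgal, Itgb2 and Itga6 were not used here.

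Among the matrix-binding subunits, Itga6, which pairs with the beta-1 chain to form a laminin receptor, had the lowest ratio of the 10 genes on the representative probe sets. Without the probe sets that can match several transcripts, Itgb5 and Itgb1 were lower still, at -0.53 and -0.42. With the mean of all probe sets Itgal, Itgav and Itgb1 were lower than Itga6. Its brighter probe set had 5857 units without CSF1 and 4452 units with it, 1.32-fold lower. The other had 1910 units and 1319 units, 1.45-fold lower. Both Itga6 probe sets pointed the same way, averaging -0.46 ± 0.10 (SD, n = 2 probe sets) in log2, and 12.1% of measured genes had a lower ratio than its representative value of -0.40.

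Itgb5 encodes the beta-5 chain, which pairs with alpha-V in a vitronectin receptor that also takes part in the uptake of apoptotic cells. All 4 of its probe sets were above background on both arrays and lower with CSF1. The brightest had 4228 units without CSF1 and 3473 units with it. The others had 3151 and 2767 units, 2943 and 2032 units, and 2146 and 1760 units on the control and CSF1 arrays, in that order. Their log2 ratios averaged -0.32 ± 0.15 (SD, n = 4 probe sets). That SD is between probe sets read on the same 2 arrays and covers neither cultures nor animals. When the arrays were centred on the hybridisation spikes, the 4 ratios ranged from -0.24 to 0.11. Of the 4, 3 have names that mark them as able to match several transcripts, and the remaining one had the lowest log2 ratio, -0.53.

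Itgav encodes the alpha-V chain, which recognises the RGD motif of vitronectin and fibronectin. Its brightest probe set had 4958 units without CSF1 and 4193 units with it, and a second had 514 units and 492 units. Together they averaged -0.15 ± 0.13 (SD, n = 2 probe sets) in log2, with -0.24 for the brighter and -0.06 for the dimmer. Another probe set, 165.8 units on the control array and below background with CSF1, gave a bound of at least 1.23-fold lower, and the other 2 were below background on both arrays. Averaging all 5, those below background included, gave -1.11.

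Itgb1, the beta chain shared by many matrix receptors, gave a value that depended on the probe set. The brightest had 8824 units without CSF1 and 8349 units with it, a log2 ratio of -0.08. The second had 6414 units and 4810 units, a log2 ratio of -0.42, and the third had 731 units and 551 units, a log2 ratio of -0.41. All 3 were lower with CSF1, at an average of -0.30 ± 0.19 (SD, n = 3 probe sets), and the size of the Itgb1 difference stands between 1.06-fold and 1.33-fold according to the probe set. The other 3 probe sets of Itgb1 were below background on both arrays.

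Itga4, the alpha chain of VLA-4, binds VCAM-1 and fibronectin and serves leukocyte adhesion to inflamed endothelium. Its brightest probe set had 1558 units without CSF1 and 1556 units with it, a log2 ratio of -0.002. On 2 dim probe sets the signal went from 181.5 to 207.1 units and from 183.0 to 161.1 units, in opposite directions. Another had 254.9 units on the control array and was below background with CSF1, at least 1.89-fold lower, and the last was below background on both arrays. The 3 probe sets above background on both arrays averaged 0.00 ± 0.19 (SD, n = 3 probe sets) in log2, so no difference of Itga4 beyond that spread was seen on them.

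Itga5 encodes the alpha chain of the classical fibronectin receptor. By representative probe sets on the deposited scale, it was the single member with a higher signal on the CSF1 array. Its one probe set above background had 544.6 units without CSF1 and 602.3 units with it, a 1.11-fold higher signal and a log2 ratio of 0.15. This is smaller than the pooled SD between probe sets of 0.29. The same holds, in size, for the representative ratios of Itgam, Itgax, Itgb2, Itga4, Itgav, Itgb1 and Itgb5. The name of the Itga5 probe set marks it as able to match several transcripts. The other 3 probe sets were below background on both arrays.

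**Figure D2:**
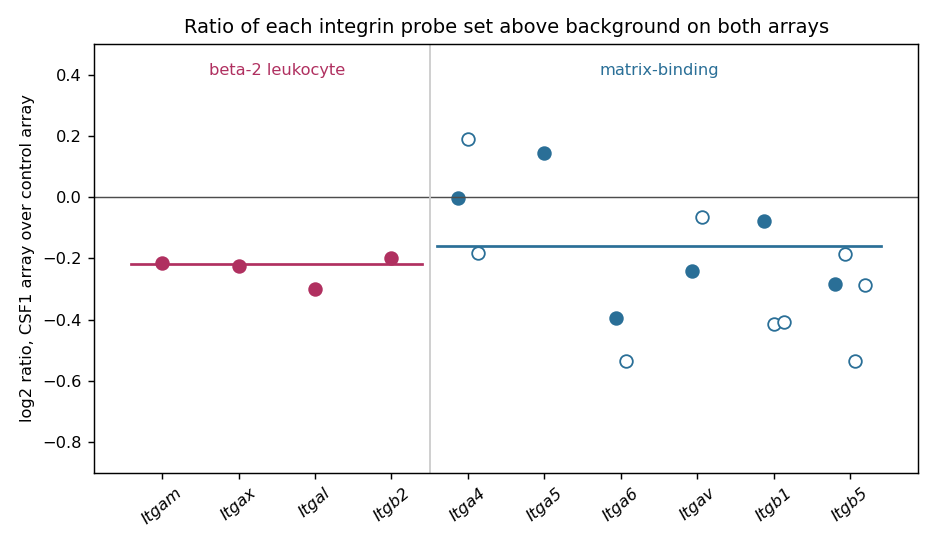
Log2 ratio (CSF1 over control) for the 19 integrin probe sets above background on both arrays, by gene. Filled circles are the probe sets that represent the gene, open circles the others, and horizontal lines the medians of the representative values, -0.22 for the beta-2 and -0.16 for the matrix-binding subunits.

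The comparison of the 2 families asks whether CSF1 shifted leukocyte adhesion receptors and matrix receptors differently. The 4 beta-2 genes were all lower with CSF1 on the deposited scale and lay close together, from -0.30 to -0.20, with a median log2 ratio of -0.22. The 6 matrix-binding genes ranged from -0.40 for Itga6 to 0.15 for Itga5 and had a median of -0.16. Of these 5 were lower, Itga4 by only -0.002, and 1 was higher. The matrix-binding range encloses the beta-2 range, and the medians differed by -0.06 (beta-2 minus matrix-binding). The pooled SD between probe sets is scatter within a gene and gives no error for this difference.

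The order of the 2 medians turned with the choice of probe sets. Over the probe sets above background on both arrays the medians were -0.22 for 4 beta-2 and -0.24 for 15 matrix-binding probe sets, a difference of 0.02. Without the probe sets that can match several transcripts, the matrix-binding median was -0.40, which puts the difference at 0.18. This choice exchanges the representative probe set of Itgb1 and Itgb5 for lower ones and leaves Itga5 without a measured value. No difference between the families is therefore shown by these 2 arrays.

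Members that form a receptor together can be set side by side by their representative log2 ratios. The alpha chains Itgam, Itgax and Itgal stood 0.02, 0.03 and 0.10 below their partner Itgb2 on the deposited scale. Itgav was 0.04 above its partner Itgb5. The gaps between Itgb1 and its partners ranged more widely, with Itga6 0.32 below it, Itgav 0.16 below, Itga4 0.08 above and Itga5 0.23 above. With the mean over probe sets above background, Itgb1 itself moved from -0.08 to -0.30, so these gaps rest on the probe set chosen for Itgb1. After quantile normalization Itgb2 stood at -0.07, which sets its 3 alpha chains further below it.

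**Figure D3:**
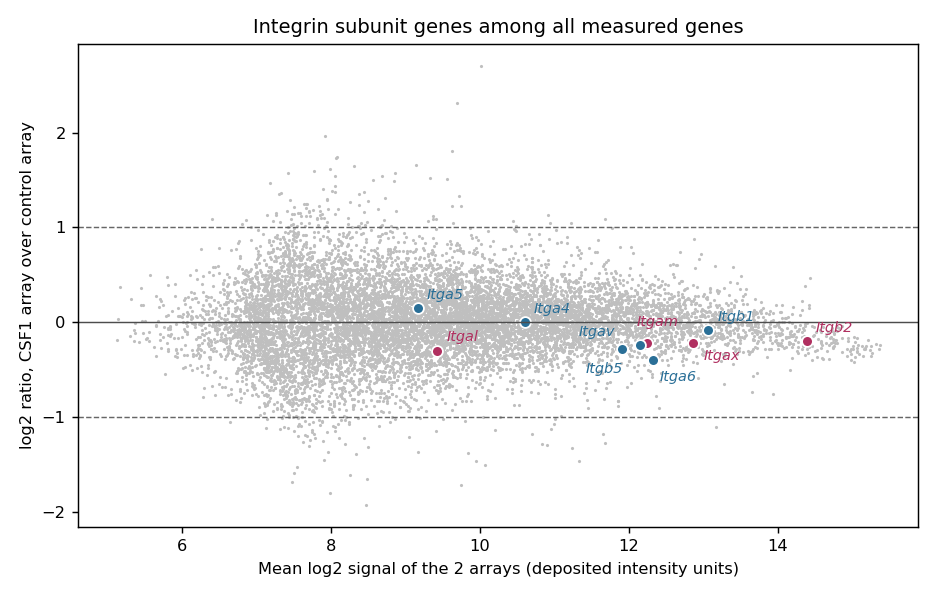
Log2 ratio (CSF1 over control) against the mean log2 signal of both arrays for all 11144 measured genes (grey) and the 10 integrin subunits (beta-2 in red, matrix-binding in blue), with dashed lines at 2-fold. The subunits lie inside the dashed lines, from -0.40 for Itga6 to 0.15 for Itga5.

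Most other integrin subunits were below background on both arrays. Of 17 further alpha and beta chains, 15 had a probe set of a single gene name, and 9 of these were below background on both arrays, including Itga2, Itga7, Itga8, Itga10, Itgae, Itgb4, Itgb6 and Itgb8. Of the 6 measured, 3 were lower and 3 higher with CSF1, with a median of -0.12, and none was past 2-fold. The beta-7 chain Itgb7, an alternative partner of Itga4 in lymphocytes, had 731 units without CSF1 and 975 units with it, 1.33-fold higher. The collagen receptor chain Itga1 was 1.27-fold lower, from 217 to 171 units, Itga9 was 1.23-fold lower, from 294 to 239 units, and Itgb3, the beta chain of the osteoclast vitronectin receptor, was 1.19-fold lower, from 396 to 334 units. Without a background level the median of this list was 0.23 over 15 genes, 9 of them below background.

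The cytoplasmic machinery that activates integrins had ratios on both sides of 0. Of 19 listed proteins that bind integrin tails or switch the receptors on, 16 were measured, 9 lower and 7 higher with CSF1, with a median log2 ratio of -0.03 and none past 2-fold. Talin-1 (Tln1), which links the beta tail to actin, had a log2 ratio of 0.15, and the leukocyte kindlin Fermt3 one of -0.07. Cyth1, an exchange factor that binds the beta-2 tail, was 1.53-fold lower, from 1677 to 1093 units. Cib1, a calcium-binding protein of integrin tails, was 1.37-fold higher, from 2136 to 2916 units, and the adaptor Fyb, which works with Skap proteins downstream of immune receptors, was 1.28-fold higher on its brightest probe set, averaging 0.16 ± 0.28 (SD, n = 2 probe sets) in log2. Skap1 was at least 1.35-fold lower, being below background with CSF1.

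Scaffold and actin linker genes of adhesion sites were split likewise, with 8 of 17 measured genes lower, 9 higher, a median of 0.01 and none past 2-fold. Lpp, a LIM protein of focal adhesions, had the lowest ratio of them. It went from 5014 to 2716 units, 1.85-fold lower, and its log2 ratios averaged -0.83 ± 0.12 (SD, n = 6 probe sets). Vinculin (Vcl), which reinforces the link of talin to actin, was 1.28-fold lower, with a mean of -0.39 ± 0.06 over 2 probe sets, and Lims2 was 1.32-fold lower, from 215 to 163 units. Parva, a parvin that binds integrin-linked kinase, was 1.502-fold higher on its brightest probe set, from 423 to 636 units, with a mean of 0.86 ± 0.39 over 2 probe sets.

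Of the kinases and signalling proteins close to integrins, 14 of 17 were measured, 5 lower and 9 higher, with a median of 0.04 and none past 2-fold. Arhgef7, an exchange factor for Rac and Cdc42, was 1.56-fold higher, from 903 to 1407 units. Ptk2b, the adhesion kinase Pyk2 that is prominent in macrophages, was 1.23-fold higher, and the Rac activator Dock2 1.22-fold higher, while the kinase Src was 1.24-fold lower. The 10 measured membrane partners of integrins had a median of -0.04, 5 lower and 5 higher. Among these the urokinase receptor Plaur, which associates with Mac-1, and the tetraspanin Cd9 were each 1.24-fold lower, the tetraspanin Cd151 was 1.23-fold higher and Bsg was 1.19-fold higher.

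Ligand genes included the one gene of the 7 integrin-related lists past 2-fold. Of 13 measured ligands of matrix-binding integrins, 6 were lower and 7 higher, with a median of 0.02. The matricellular protein gene Thbs1, whose product binds alpha-V and beta-1 integrins, went from 13552 to 6276 units, 2.16-fold lower, averaging -1.11 ± 0.01 in log2 (SD, n = 2 probe sets). Tnc, which encodes tenascin-C, was 1.46-fold lower and fibronectin (Fn1) 1.20-fold lower on its brightest probe set, averaging -0.67 ± 0.57 in log2 (SD, n = 2 probe sets). The laminin chain gene Lamc1 was 1.68-fold higher, from 372 to 625 units, and Vcam1, the ligand of VLA-4, was 1.48-fold higher on its brightest probe set, with a mean of 0.34 ± 0.37 over 3 probe sets. Of 5 measured ligands of the beta-2 integrins, Icam2 was 1.36-fold lower, from 917 to 672 units, F11r (JAM-A) was 1.36-fold higher, from 612 to 834 units, and Icam1 had a log2 ratio of 0.09, while Jam3 and Icam5, near background, were 1.07-fold and at least 1.12-fold lower.

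**Figure D4:**
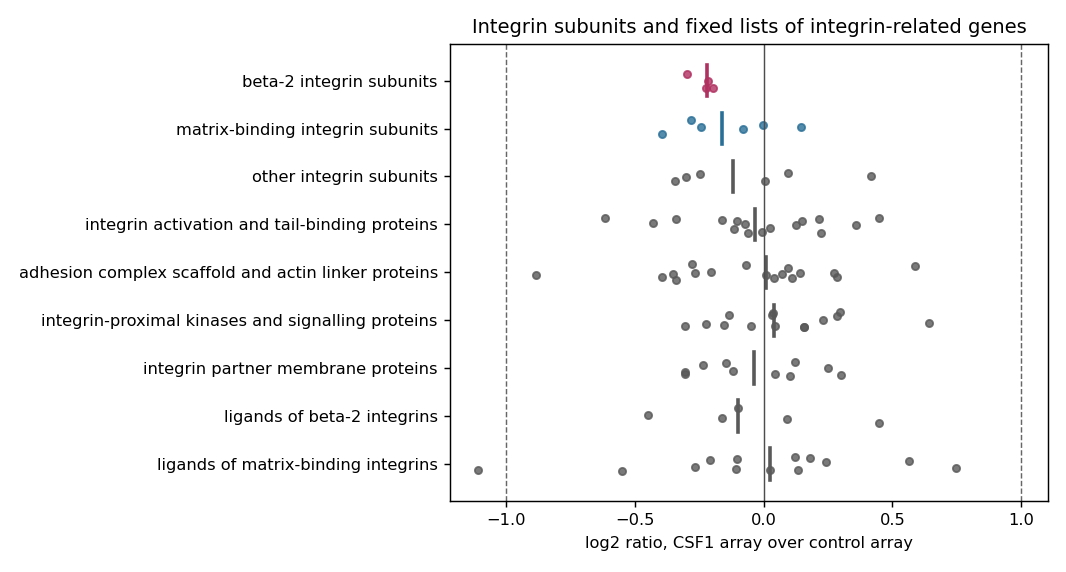
Log2 ratio (CSF1 over control) for each measured gene of the 2 integrin families and of 7 lists of integrin-related genes, with thick vertical bars at the medians and dashed lines at 2-fold. The beta-2 subunits cluster between -0.30 and -0.20, the lists spread to both sides of 0, and Thbs1 at -1.11 is the point beyond the dashed lines.

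Several markers of the cells in the culture differed between the arrays by as much as the integrins or more. The 11 measured macrophage markers had a median log2 ratio of -0.03, 7 lower and 4 higher, and the summed signal of the list was 166190 units without CSF1 and 145858 units with it. Summed signals, here and below, follow the brightest probe sets of a list and include its genes below background. They are no measure of the amount of a cell type. In this list Cd68, with 38569 and 28929 units, and Lyz2 make up most of the difference. Mertk, a receptor for apoptotic cells, was at -0.75, Cd68 at -0.41, the lysozyme gene Lyz2 at -0.37, Csf1r at -0.34 and Adgre1 at -0.11. Fcgr1 and Msr1 were at -0.03 and -0.0005 on their brightest probe sets. The 4 higher ones were the scavenger receptor Marco at 0.72, Timd4, with 147 units on the control array, at 0.41, Mrc1 at 0.16 and Cd14 at 0.05. Of 12 fibroblast and mesothelial markers 10 were measured. On their brightest probe sets 9 of them were higher with CSF1, with a median of 0.28. The summed signal of the list was 51958 units without CSF1 and 65761 units with it. The highest ratios were 0.78 for the receptor gene Pdgfrb and 0.59 for the proteoglycan gene Dcn. Direction depended on the probe set for Pdgfra and Col1a1, which averaged -0.13 ± 0.63 and -0.06 ± 0.26 in log2 (SD, n = 2 probe sets each). Col3a1 and Col1a2 averaged 0.58 ± 0.27 and 0.20 ± 0.03 (SD, n = 2 probe sets each). Of the mesothelial and epithelial genes in the list, Krt18, with 248 and 242 units, and Wt1, with 175 and 195 units, were above background on both arrays, Upk3b on the CSF1 array alone, and Msln and Krt19 on neither. Fibroblasts express beta-1, alpha-V and beta-5 chains, and the part of these cells in the integrin values was not tested.

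Itgal and Itga4 are shared with lymphocytes. Of 8 T and NK cell markers with a probe set 6 were measured, with a median of -0.04, and the summed signal was 3206 units without CSF1 and 1975 units with it. Granzyme A (Gzma), with 1554 and 472 units, makes up most of that difference, and Prf1, with 413 and 236 units, was lower as well. The T cell genes Cd3g, with 419 and 408 units, Cd3d, with 295 and 375 units, Cd2 and Cd5 were above background on both arrays, and Cd3e and the NK cell gene Ncr1 on neither. Of 6 B cell markers 5 were measured, 3 lower and 2 higher with CSF1, and the summed signal was 3600 and 3225 units. Most of both sums is Cd22, with 2987 and 2656 units. Cd79a and Cd79b were above background on the control array alone, Pax5 on the CSF1 array alone, and Ms4a1, with 151 and 153 units, was near background. The summed signal of the 6 dendritic cell markers, a cell type that also bears Itgax, was 579 and 390 units, and Zbtb46 was the single one above background. Zbtb46, a transcription factor of classical dendritic cells, had 318 and 144 units, 2.20-fold lower with CSF1 on 1 probe set. Its CSF1 value is near background and lies under the other background level of 178.6 units, where only a bound would remain. The part of these cells in the values of Itgal, Itga4 and Itgax was not tested.

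Markers of other cell types were above background to differing extents. Of 8 neutrophil markers, whose cells bear much Itgam and Itgb2, S100a8 alone was above it, with 4838 and 5487 units, and Elane, Mpo, Camp and Ltf were below it on both arrays, at a summed signal of 5211 and 5896 units for the list. Of 9 mast cell and eosinophil markers 5 were measured, 4 of them lower, among them Cpa3, with 1421 and 1236 units, and Cma1, with 747 and 560 units, at a summed signal of 2877 and 2474 units. Of 6 endothelial markers 3 were measured, at a summed signal of 869 and 611 units and a median log2 ratio of -0.71, and Pecam1, Cdh5 and Tek were below background on both arrays. Among the 3 measured, Cldn5 and Kdr were above background on the control array alone and Vwf on both. Among 4 platelet markers Itga2b was above background, and Pf4, which macrophages express too, had 8130 and 6901 units, and Gp9 and Ppbp were below background on both arrays. The part of these cells in the values of the beta-2 subunits was not tested.

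**Figure D5:**
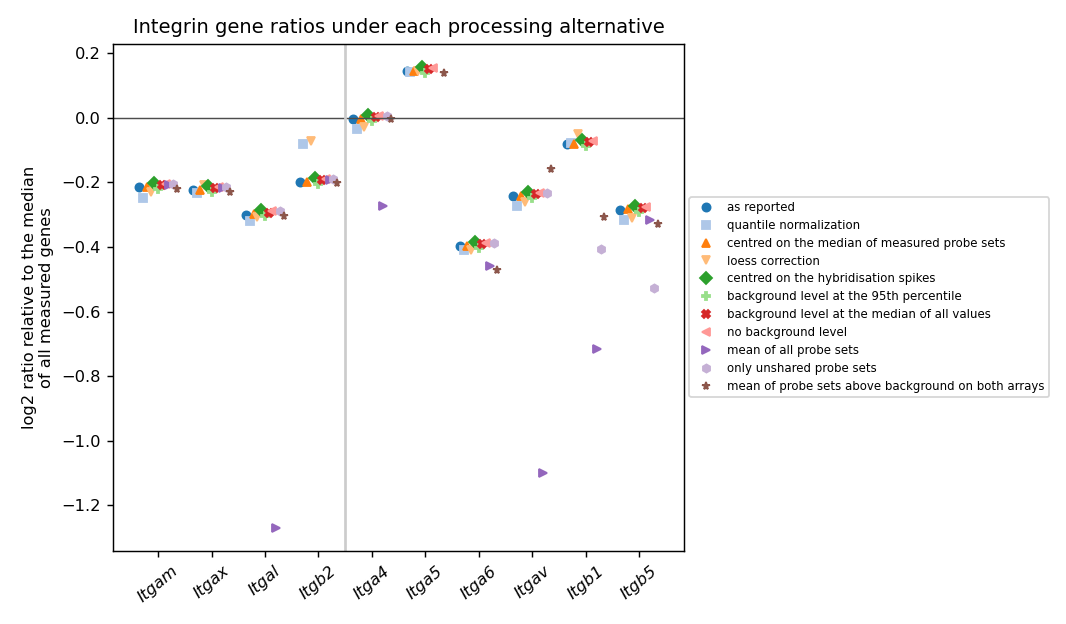
Log2 ratio of each integrin gene, after subtracting the all-gene median, as reported and under 10 processing alternatives. Points of a gene mostly overlap, except for the mean of all probe sets (Itgal, Itgav, Itgb1 and Itga4), the choice without shared probe sets (Itgb1 and Itgb5), the mean over measured probe sets alone (Itgb1) and the corrections for signal level (Itgb2).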

How the data were processed

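The deposited series matrix holds 1 intensity value per probe set and array on a linear scale. The authors analysed the arrays with GeneSpring 6.2, per the labels' design text, and how probe signals were summarized was not given in the sources used here. Values were moved to log2 with no further scaling. Genes were named through the platform annotation, in which 34958 probe sets had 1 symbol and 932 several, and all 31 integrin probe sets matched RefSeq by Entrez ID. The background level came from 130 probe sets of 85 genes of unrelated tissues. The members and gene lists were chosen with earlier results of these data known. Named genes were all members, per pathway list the genes past 2-fold and up to 4 with the largest absolute ratio, and defining genes of marker lists, with further genes named after their values were seen. Names ending in _s_at, _x_at or _a_at mark probe sets that can match several transcripts, called shared here. The integrin probe sets so named are still annotated to exactly 1 gene. Listed genes without a probe set of 1 symbol, such as Itgad, Lyn, Spp1 and C3, were not analysed here. No test was run, and the calculation was tested on simulated data. Alternatives were 4 scalings (loess span 0.3), other background levels, other probe set rules, a threshold of 1.5-fold and, chosen after seeing the data, averaging those probe sets that exceeded background on both arrays. Median signals over all probe sets were 101.5 units (control) and 91.6 units (CSF1). Promoter sequences are RefSeq's (GRCm38.p6). Calculations used pandas 2.3.3 and numpy 2.4.6 in Python 3.11.15. The loess fit came from statsmodels 0.14.6, and figures were drawn with matplotlib 3.10.9.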

Additional observations from a re-analysis of the deposited data

How the results depend on the processing

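Of 478 values recomputed, 415 stayed within the pooled SD between probe sets (0.29), or within 1.5 times for counts. That SD is larger than most of the integrin ratios, so a value could change sign and still be counted as staying. The difference of the 2 medians did so, from -0.06 to 0.18, without shared probe sets. A change of the background level alone leaves the ratio of a bright gene as it was, so the count of 415 is no measure of stability. Centring on the 18 hybridisation spikes, whose log2 ratio was -0.29 ± 0.13 (SD), raised the ratios, by unequal amounts where a gene was at background on an array. The beta-2 median became 0.075 and the matrix-binding median 0.13, 2 integrin genes were below 0, and the medians became 0.26 for activation proteins, 0.30 for scaffolds, 0.33 for kinases, 0.26 for membrane partners and 0.29 for beta-2 ligands. The mean of all probe sets gave a matrix-binding median of -0.46, a difference of 0.25 (beta-2 minus matrix-binding) and 2 integrin genes 2-fold lower, Itgal and Itgav, through probe sets below background. Without a background level the other integrin subunits had a median of 0.23. Counts over all measured genes were 111 higher and 86 lower at 2-fold. They became 328 and 20 with spike centring, 64 and 53 at a background of 178.6 units, 195 and 197 at 96.5 units, 1743 and 1925 without one, 663 and 612 at 1.5-fold, 70 and 54 with the mean over probe sets above background, and 136 lower with the mean of all probe sets. No paired analysis was possible because each group has 1 array. Signals near or below background limit the second probe set of Itgal, all but 1 of Itga5, the dim ones of Itga4, those of Itgav below background with CSF1, and 3 of the 6 of Itgb1.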
